A study of Rattus norvegicus with 6 samples.

Results

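The arms examined were rno-miR-21-5p and rno-miR-21-3p, the 2 mature miRNAs cut from the rat miR-21 hairpin. They were chosen by name, and are 2 of the 749 miRNAs in a table of exosomal miRNA counts. The exosomes came from medium conditioned by bone marrow MSCs of Sprague-Dawley rats. MSCTXL-Exo (3 libraries) came from MSCs pretreated with 400 μg/mL of Tongxinluo (TXL), a Chinese medicine, for 24 h, and MSC-Exo (3 libraries) came from MSCs without TXL. All 6 libraries share the strain, the cell type, the exosome isolation and the library kit. Separate cultures or animals are not stated for the 3 libraries of either group, and any p-value here measures the spread between the sequenced samples, which may be technical.

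miRNAs are short RNAs that guide Argonaute proteins to mRNAs, mainly through the seed, bases 2 to 8 of the miRNA, and lower the output of those mRNAs. One arm of a hairpin is usually retained as the guide and the other, the passenger, is mostly degraded. miR-21-5p is the guide arm of miR-21. It is abundant in fibroblasts and other mesenchymal cells, it restrains PDCD4 and the ERK inhibitor Sprouty-1, and it is known for cell survival, inflammation and cardiac fibrosis. miR-21-3p is its passenger arm, which has been studied as a paracrine signal from cardiac fibroblasts to cardiomyocytes. Transcription of miR-21 is induced by STAT3 and AP-1, and SMAD proteins activated by TGF-β promote the cutting of its hairpin.

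The sequences of both arms are shown because the comparison of the arms rests on telling them apart, with the seed in capitals (RefSeq, GRCr8).
miR-21-5p: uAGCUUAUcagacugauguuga
miR-21-3p: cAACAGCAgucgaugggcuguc
The hairpin that holds them is shown with the mature arms in capitals.
Mir21 hairpin: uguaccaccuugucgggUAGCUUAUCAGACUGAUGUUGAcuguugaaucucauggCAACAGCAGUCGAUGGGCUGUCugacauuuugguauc
In GRCr8 the hairpin of 92 bases lies on the minus strand of chromosome 10 from 71902600 to 71902691, with miR-21-5p from 71902653 to 71902674 and miR-21-3p from 71902615 to 71902636. It lies between Tubd1 and Vmp1, 532 bases from the annotated Vmp1 gene, which encodes a membrane protein of autophagy. Both arms are 22 bases long, but their GC content is 36.4% in miR-21-5p and 59.1% in miR-21-3p. The 5p arm starts with U and the 3p arm with C. None of the other mature sequences among the 693 different rat miRNAs of the RefSeq table has the seed of either arm. CAGAC, the letters described as the R-SMAD binding element of hairpins regulated by TGF-β, occurs once in the hairpin, at bases 9 to 13 of miR-21-5p, directly after the seed. It is found in 8.11% of the 419 rat hairpins and in 1.88% of the mature sequences, searched on the hairpin strand only. A match is a description of the letters and not of a bound site.

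Counts are of unique molecular identifiers (UMIs), tags that let copies made by PCR be counted once. The libraries held 382665 to 1792805 UMIs in MSCTXL-Exo and 453812 to 1000585 UMIs in MSC-Exo. They carry the numbers 10, 12 and 13 in both groups, and neither the labels nor the methods say what these mark. Levels are given as CPM, each count as a part of 1e+06 UMIs of its library, after edgeR's TMM scaling (trimmed mean of M values). All 11 mesenchymal marker miRNAs listed (led by miR-125b-5p, miR-199a-3p and miR-143-3p) were measured and tested. Their summed level was 313257 to 351054 CPM in MSCTXL-Exo and 271013 to 348006 CPM in MSC-Exo. Of the 11, 0 passed a fold change of 2 with an unadjusted p under 0.05 in edgeR. Over all 392 tested miRNAs only 3.57% passed, so 0 of 11 is near that share. Endothelial markers summed to 807 to 1340 CPM in MSCTXL-Exo and 1018 to 1403 CPM in MSC-Exo, and liver markers to 332 to 555 CPM in MSCTXL-Exo and 368 to 432 CPM in MSC-Exo. Muscle markers summed to 130 to 552 CPM in MSCTXL-Exo and 438 to 836 CPM in MSC-Exo. This sum was mostly miR-206-3p, with 51 to 392 UMIs in MSCTXL-Exo and 200 to 758 UMIs in MSC-Exo. The other muscle markers listed had at most 26 UMIs each in any library and were too rare to be tested. Epithelial, erythroid and neuronal markers summed to at most 77.2 CPM in any library. The erythroid sum leaves out miR-486, a listed marker that is not among the miRNAs counted. The 4 blood and immune markers summed to 204 to 306 CPM in MSCTXL-Exo and to 315 to 422 CPM in MSC-Exo, and their part in the results for miR-21 was not tested. No listed marker of the table was at 0 in all libraries.

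miR-21-5p was among the most abundant miRNAs of the exosomes in both groups and averaged slightly less in MSCTXL-Exo, a difference that did not pass the test. It was counted 14166, 35377 and 74064 times in MSCTXL-Exo libraries 10, 12 and 13, against 21557, 38130 and 48125 times in MSC-Exo libraries 10, 12 and 13. It was the 9th to 11th most counted miRNA of each library in MSCTXL-Exo and the 7th or 8th in MSC-Exo. Scaled, it had 35319, 43802 and 47948 CPM in MSCTXL-Exo libraries 10, 12 and 13, against 41583, 53604 and 51986 CPM in the MSC-Exo libraries of the same numbers. The groups overlapped, as in most miRNAs (7.4% of the 392 tested did not overlap on this scale), because MSC-Exo library 10 lay below MSCTXL-Exo libraries 12 and 13. Within each library number the level was lower in MSCTXL-Exo, at 0.849-fold (10), 0.817-fold (12) and 0.922-fold (13). How many of the tested miRNAs kept 1 direction in all 3 numbers was not counted. The means were 42356 ± 6437 CPM in MSCTXL-Exo and 49058 ± 6524 CPM in MSC-Exo (SD, n = 3 each). The log2 fold change was -0.21 with a standard error of 0.20 by the quasi-likelihood test of edgeR, fitted over all tested miRNAs (Benjamini-Hochberg adjusted p = 0.992). Its 95% interval ran from 0.626-fold to 1.19-fold, so neither a doubling nor a halving of the level lies inside it. CPM is a share of a library and gives no amount per vesicle, so the number of vesicles and their RNA content cannot be told apart here.

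**Figure D1:**
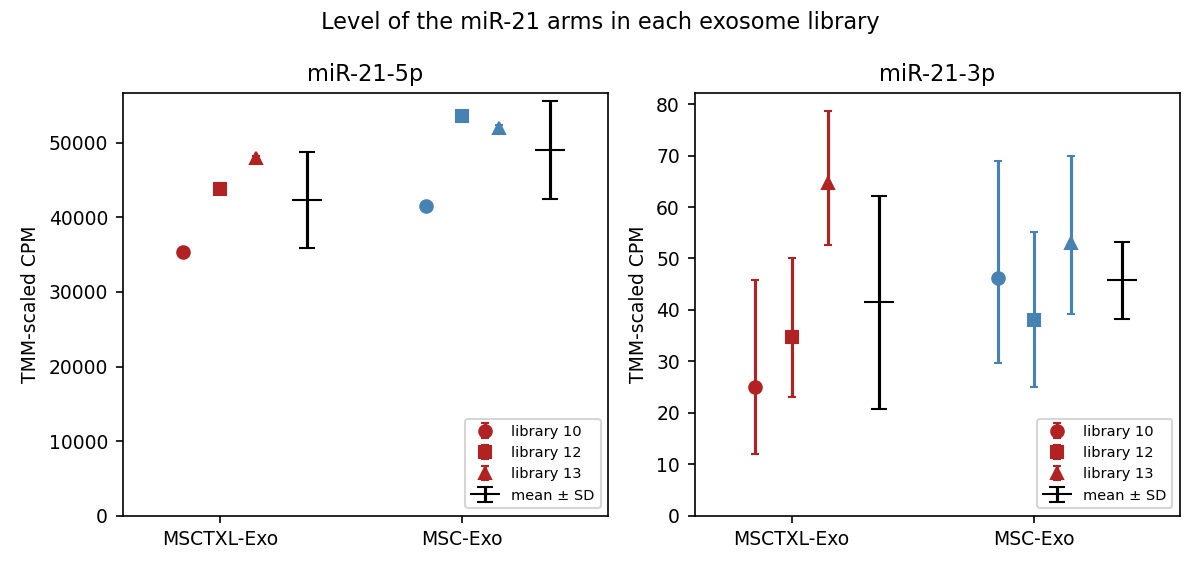
TMM-scaled CPM of miR-21-5p and miR-21-3p in each library, MSCTXL-Exo beside MSC-Exo, with exact 95% counting intervals on the points and the group mean ± SD as a bar. miR-21-5p lay between 35319 and 53604 CPM in all 6 libraries, and miR-21-3p between 24.9 and 64.7 CPM.

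The overlap of the groups in miR-21-5p depended on the scaling. As a share of all UMIs of a library, miR-21-5p held 3.70%, 4.45% and 4.13% in MSCTXL-Exo libraries 10, 12 and 13, against 4.75%, 5.52% and 4.81% in the MSC-Exo libraries. On this scale every MSCTXL-Exo library lay below every MSC-Exo library (0.814-fold, exact two-sided permutation test, p = 0.1, the smallest that 3 libraries against 3 can give). Such a separation is not rare here, since 7.91% of the 392 tested miRNAs had groups that did not overlap on this scale (4.59% of the 392 with the lower values in MSCTXL-Exo). edgeR with library totals in place of TMM gave a log2 fold change of -0.30 and an adjusted p = 0.938. Set against the summed mesenchymal markers of the same library, an alternative added after the values were seen, miR-21-5p stood at 11.3%, 14% and 13.7% of that sum in MSCTXL-Exo libraries 10, 12 and 13 and at 15.3%, 16.4% and 14.9% in the MSC-Exo libraries. This ratio again did not overlap (0.831-fold, exact two-sided permutation test, p = 0.1). The same held for 8.66% of the 381 tested miRNAs outside the marker list.

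miR-21-3p was present at a small fraction of the level of miR-21-5p, and its difference between the groups did not pass the test either. It was counted 10, 28 and 100 times in MSCTXL-Exo libraries 10, 12 and 13, against 24, 27 and 49 times in MSC-Exo libraries 10, 12 and 13. Its scaled levels were 24.9, 34.7 and 64.7 CPM in MSCTXL-Exo libraries 10, 12 and 13, against 46.3, 38.0 and 52.9 CPM in MSC-Exo libraries 10, 12 and 13. The lowest and the highest value were both in MSCTXL-Exo, so that the range of MSC-Exo lay inside that of MSCTXL-Exo. The 10 UMIs of MSCTXL-Exo library 10 allow 12 to 45.9 CPM (exact 95% interval, counting error only), and the 100 UMIs of library 13 allow 52.7 to 78.7 CPM on the TMM scale. As shares of all UMIs the intervals of these MSCTXL-Exo libraries overlap, ending at 0.00481% in library 10 and starting at 0.00454% in library 13. The means were 41.4 ± 20.8 CPM in MSCTXL-Exo and 45.7 ± 7.50 CPM in MSC-Exo (SD, n = 3 each). edgeR gave a log2 fold change of -0.11 (standard error 0.46, adjusted p = 0.992), with a 95% interval from 0.44-fold to 1.95-fold. Its direction rested on 1 library, as the log2 fold change was 0.14 without MSCTXL-Exo library 10, and it was -0.66 without MSCTXL-Exo library 13. Within library numbers miR-21-3p was at 0.538-fold (10), 0.913-fold (12) and 1.22-fold (13) in MSCTXL-Exo.

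For scale, 14 of the 392 tested miRNAs (3.57%) passed a fold change of 2 with an unadjusted p under 0.05, 7 higher (1.79%) and 7 lower (1.79%) in MSCTXL-Exo, and neither arm of miR-21 was among them. At an adjusted p under 0.05, 0 miRNAs were left by edgeR, DESeq2 and limma-voom, while 14 had an unadjusted p under 0.05 in edgeR. The count of 14 became 6 without MSC-Exo library 10, 6 without MSC-Exo library 12, 38 without MSC-Exo library 13 and 25 without MSCTXL-Exo library 13. When libraries were blocked by their number it became 29 (7.4%), and 1 miRNA (0.255%) had an adjusted p under 0.05. In that blocked comparison the log2 fold change of miR-21-5p was -0.21 (standard error 0.12, adjusted p = 0.545 from edgeR) and that of miR-21-3p was -0.17 (standard error 0.37, adjusted p = 0.919 from edgeR), so neither call changed.

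**Figure D2:**
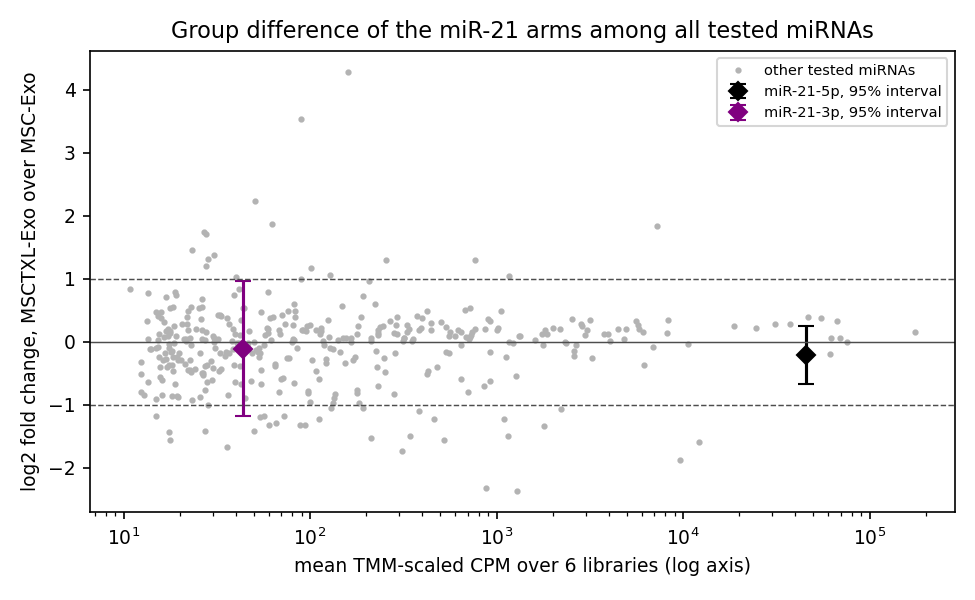
Log2 fold change of MSCTXL-Exo over MSC-Exo against mean level for the 392 tested miRNAs, as points, with both miR-21 arms drawn with their 95% intervals and dashed lines at a fold change of 2 in either direction. Both arms lie just below 0, at -0.21 and -0.11, and both intervals cross 0.

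The balance of the arms was strongly toward the guide in every library. There were 1417, 1263 and 741 UMIs of miR-21-5p for each UMI of miR-21-3p in MSCTXL-Exo libraries 10, 12 and 13, against 898, 1412 and 982 in MSC-Exo libraries 10, 12 and 13. miR-21-3p thus made up 0.0705% to 0.135% of the UMIs of both arms in MSCTXL-Exo and 0.0708% to 0.111% in MSC-Exo. The highest and lowest ratios were both in MSCTXL-Exo, and the groups overlapped. The exact 95% intervals of the 3 MSC-Exo libraries all share the values from 970 to 1328. Those of the 3 MSCTXL-Exo libraries all share only the values from 874 to 910. The MSCTXL-Exo ratios still spread more than counting error alone would usually give. The chi-square of the arm counts across libraries was 9.10 there, against 3.21 in MSC-Exo (2 degrees of freedom each). The interval of MSCTXL-Exo library 13 ended at 910. It overlapped those of MSC-Exo libraries 10 and 13 but not that of MSC-Exo library 12, which started at 970. On the log2 scale the ratio averaged 10.10 ± 0.50 in MSCTXL-Exo and 10.07 ± 0.35 in MSC-Exo (SD, n = 3 each). The difference of 0.03 (standard error 0.35) was far smaller than this spread (exact two-sided permutation test, p = 0.9). Within library numbers it was 0.66 (10), -0.16 (12) and -0.41 (13). Its sign has no meaning at this precision, since the difference was -0.10 without MSC-Exo library 10, -0.04 without MSC-Exo library 13, -0.15 without MSCTXL-Exo library 10 and -0.07 without MSCTXL-Exo library 12.

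Among the 93 hairpins with both arms tested and named alike but for -5p and -3p, miR-21 had the second largest ratio of 5p to 3p. Its mean log2 ratio over the 6 libraries was 10.09, a geometric mean of 1087 to 1. Only miR-191a had a higher one (10.62), and miR-16 (9.31) and miR-125a (7.79) came next. This order leaves out hairpins whose 3p arm was too rare to be tested, which were looked at after the order was seen. Of 58 such hairpins with a tested 5p arm, 6 had a higher ratio than miR-21 in the summed UMIs of all libraries, led by let-7i (250459 UMIs of 5p and 50 of 3p), which was above miR-21 in each of the 6 libraries. The order also leaves out miRNAs whose 3p names carry a locus number, such as let-7f. Per library let-7f had 20563 to 106798 UMIs of let-7f-5p, 13 to 100 of let-7f-1-3p and 1 to 6 of let-7f-2-3p. With its 3p arms counted together, the mean log2 ratio of let-7f lies above that of miR-21, though not in every library. It would therefore stand ahead of miR-21 if the order included it. Across the 93 hairpins the more abundant arm exceeded the other by a median of 5.21-fold. Of these hairpins 51 had more of the 5p arm and 42 more of the 3p arm. The ratio of miR-21 varied less between libraries of a group than that of the median hairpin (SD 0.43 on the log2 scale, against 0.64). Its SD was the 70th largest of the 93, and its ratio still ran from 741 to 1417 within MSCTXL-Exo. The ratio did not overlap between the groups in 5 of the 93 hairpins (5.38%), and miR-21 was not among them. The first bases of the arms of miR-21, U in 5p and C in 3p, were shared by 12 of the 81 hairpins with both sequences known, of which 9 had more of the 5p arm.

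**Figure D3:**
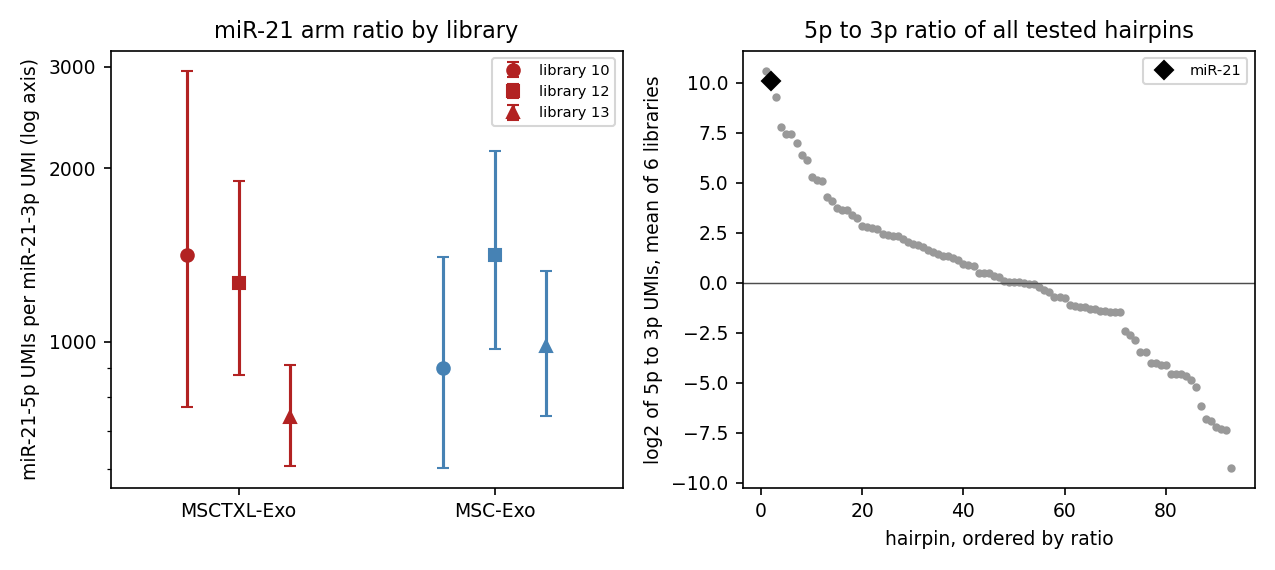
Left, miR-21-5p UMIs per miR-21-3p UMI in each library on a log axis, MSCTXL-Exo beside MSC-Exo, with exact 95% intervals for counting error, from 741 to 1417 over the 6 libraries. Right, the mean log2 ratio of 5p to 3p UMIs of the 93 hairpins in order. Among these hairpins, with both arms tested and named alike, miR-21 stands second at 10.09.

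By its mean of 45707 CPM over the 6 libraries miR-21-5p ranked 9 of the 749 miRNAs. The miRNAs next to it were members of the let-7 family, which restrain proliferation and the pluripotent state, and miR-191a-5p. let-7b-5p (rank 7) averaged 62058 ± 3064 CPM in MSCTXL-Exo and 47830 ± 8325 CPM in MSC-Exo, and let-7i-5p (rank 8) 53148 ± 12717 CPM in MSCTXL-Exo and 40545 ± 5926 CPM in MSC-Exo (SD, n = 3 each). let-7a-5p (rank 10) averaged 40785 ± 2949 CPM in MSCTXL-Exo and 33734 ± 4156 CPM in MSC-Exo, and miR-191a-5p (rank 11) 33905 ± 7772 CPM in MSCTXL-Exo and 27922 ± 7914 CPM in MSC-Exo (SD, n = 3 each). Over all 6 libraries the range of miR-21-5p overlapped that of each of these neighbours. Within libraries, let-7i-5p was counted more often than miR-21-5p in 3 of 3 MSCTXL-Exo libraries and in 0 of 3 MSC-Exo libraries, and let-7b-5p in 3 of 3 MSCTXL-Exo libraries and in 1 of 3 MSC-Exo libraries. let-7a-5p and miR-191a-5p were each counted more often in 1 of 3 MSCTXL-Exo libraries and in 0 of 3 MSC-Exo libraries. The difference in order between the groups was not tested. miR-21-3p ranked 248, at a mean of 43.6 CPM, between miR-872-3p and miR-501-5p above it (44.0 and 43.9 CPM) and miR-497-5p and miR-540-3p below it (43.4 and 42.7 CPM), all with overlapping ranges.

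miR-21-5p was one of the steadier miRNAs. Its SD between libraries of a group was 0.21 on the log2 scale, the 30th lowest of 392, against a median of 0.59 over all tested miRNAs and of 0.29 over the 50 most abundant. miR-21-3p, with far fewer UMIs, had an SD of 0.52. Likeness to the arms was measured as the root mean square difference of log2 CPM over the 6 libraries after each miRNA's own mean was subtracted. Closest to miR-21-5p were miR-27a-3p (0.07) and miR-27b-3p (0.08), guide arms of one family, then miR-146b-5p (0.11), miR-17-1-3p (0.14) and let-7f-5p (0.14). miR-27a-3p had 2428, 2850 and 3553 CPM in MSCTXL-Exo libraries 10, 12 and 13 and 2832, 3929 and 3838 CPM in their MSC-Exo counterparts, with number 10 the lowest in both groups, as for miR-21-5p. Closest to miR-21-3p were miR-301a-5p (0.15), miR-30e-3p (0.16), miR-455-5p (0.25), miR-101b-3p (0.25) and miR-196a-5p (0.26). Each of these also had its highest level in MSCTXL-Exo library 13. The arms of miR-21 were not nearest to each other, as their difference was 0.35, against a median distance to the other miRNAs of 0.57 for miR-21-5p and 0.66 for miR-21-3p. miR-21-3p stood 88th of 391 in likeness to miR-21-5p, and miR-21-5p stood 34th of 391 in likeness to miR-21-3p. These distances describe 6 libraries in which library number, depth and scaling are shared by all miRNAs.

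**Figure D4:**
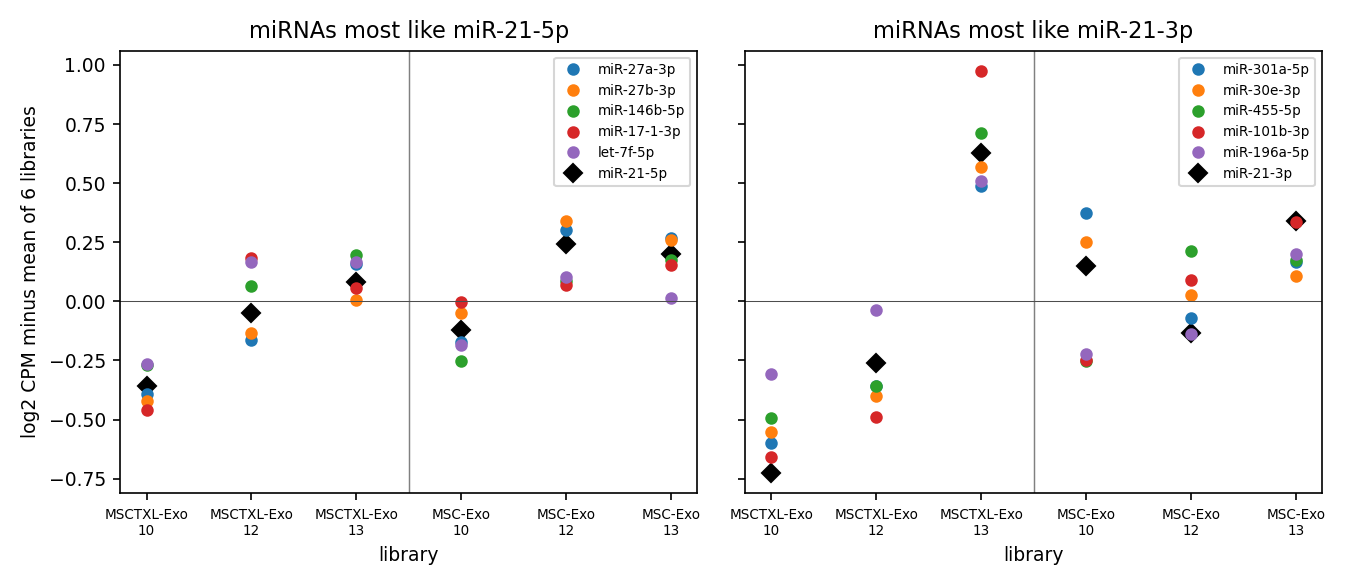
Log2 CPM minus each miRNA's mean over the 6 libraries, with MSCTXL-Exo on the left and MSC-Exo on the right of each panel, for miR-21-5p and miR-21-3p (black diamonds) and the 5 miRNAs most like each. Library 10 of MSCTXL-Exo is the lowest for miR-21-5p and for miR-21-3p, and library 13 of MSCTXL-Exo the highest for miR-21-3p.

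miR-21 stands in the list of inflammation miRNAs and in the list of cardiac repair miRNAs that the study drew up, and neither of its arms passed the thresholds. These lists name miRNAs without arms, so every arm was taken here, including arms the study did not name. miR-125 was read as miR-125a and miR-125b, and miR-126 as miR-126a and miR-126b. Of the 13 tested arms of the inflammation list, both miR-21 arms included, 1 was higher in MSCTXL-Exo past a fold change of 2 with an unadjusted p under 0.05 and 0 were lower (median log2 fold change -0.16, against 0.03 over all tested miRNAs). Over all 392 tested miRNAs 3.57% passed, 1.79% in each direction. Of the 12 tested arms of the cardiac repair list 2 were higher and 0 lower (median 0.10). The 2 were miR-146a-5p, a brake on Toll-like receptor signaling that is in both lists (log2 fold change 1.84, standard error 0.74), and miR-125a-3p, and edgeR gave each an adjusted p = 0.972. The call of miR-146a-5p was lost without MSC-Exo library 10 (1.61) or 12 (1.44) or without MSCTXL-Exo library 10 (1.83) or 13 (1.24), and kept without MSC-Exo library 13 (2.71) or MSCTXL-Exo library 12 (2.25). When libraries were blocked by number it passed (1.86, standard error 0.21), and it was the 1 miRNA with an adjusted p under 0.05 there (adjusted p = 0.0234 from edgeR). miR-125a-3p lay just past the fold threshold and passed in 1 of the 6 comparisons with a library left out, that without MSCTXL-Exo library 13 (1.15), having 0.67 to 1.07 in the others, and not when libraries were blocked by number (0.95). The list of miRNAs known to be induced by inflammatory signals, as miR-21 is, had 9 tested arms, of which miR-146a-5p alone passed and the most abundant other, miR-146b-5p, had -0.00 (median 0.05).

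Of the 5 tested arms of other miRNAs known to promote fibrosis, 0 passed in either direction (median -0.01), beside 3.57% of all tested miRNAs. The most abundant were miR-199a-3p, at a log2 fold change of -0.01, and miR-34a-5p, at 0.28. Of 15 tested arms of miRNAs known to restrain fibrosis 0 were higher and 1, miR-30c-1-3p, was lower in MSCTXL-Exo (median 0.07), and miR-30c-1-3p passed whichever library was left out. The share lower over all tested miRNAs was 1.79%. These calls of miR-30c-1-3p are unadjusted and rest on few UMIs. It was counted 4, 9 and 11 times in MSCTXL-Exo libraries 10, 12 and 13, against 18, 15 and 19 times in MSC-Exo. The more abundant miR-30c-5p was counted 183, 296 and 1411 times in MSCTXL-Exo, against 179, 297 and 664 times in MSC-Exo. The most abundant members of this list, miR-29a-3p, which represses collagens, and miR-26a-5p, had log2 fold changes of 0.22 and 0.21. Of the 17 tested miRNAs whose hairpin holds CAGAC, both miR-21 arms among them, miR-146a-5p was higher and miR-3084a-3p lower (-1.41) past the unadjusted thresholds (median -0.21), the second no longer so without MSC-Exo library 10 (-1.22) or 12 (-1.39) or MSCTXL-Exo library 13 (-1.07). miR-3084a-3p passed when libraries were blocked by number (-1.48). miR-7a-5p and miR-214-3p, the most abundant after miR-21-5p and miR-146a-5p, had -0.70 and -0.59 and did not pass. No tested member of these lists had an adjusted p under 0.05 in edgeR without the block, and miR-146a-5p had one with it.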

How the data were processed

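Libraries were prepared by the authors using the QIAseq miRNA Library Kit. The tools named in the submitters' processing notes are cutadapt 2.7 and Bowtie 1.2.2. The genome build and the UMI counting tool are not given in the sources used here. The deposited values are UMI counts per mature miRNA. The table has 833 lines for 749 miRNAs, since 69 miRNAs have a line per locus with identical counts, and these lines were merged. CPM computed by the authors fill 6 further columns, which were left out. Columns beginning with M were taken as MSC-Exo and those with T as MSCTXL-Exo, and no source links 10, 12 and 13 to replicates 1 to 3. RefSeq sequences matched both arms by name.

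The comparison used edgeR 4.0.16 under R 4.3.3 (normalization by TMM, with factors 0.862 to 1.14, filterByExpr with minimum count 10 and minimum total 15, 392 miRNAs kept, quasi-likelihood test without a block), with p-values adjusted over all tested miRNAs. Thresholds of fold change and p are those of the study's methods. Arm ratios were compared by an exact permutation test (SciPy 1.17.1). Intervals for counts are exact (Clopper-Pearson, 95%) and cover counting error only. A count of 0 allows 1.94 to 7.48 CPM (3 UMIs) in these libraries. Same-numbered libraries deviated together from their group means (correlations over miRNAs 0.429 for 10, 0.159 for 12 and 0.689 for 13), although MSCTXL-Exo 12 correlated more with MSC-Exo 10 (0.343), so the number was also used as a block. Depth increases from 10 to 13 within each group, so the number and depth cannot be told apart. Alternatives were DESeq2 1.42.0, limma-voom (limma 3.58.1), other scalings and filters, and each library left out. The scripts were tested on simulated data. Named miRNAs were the arms, their neighbours in level and arm ratio, the 5 most like each arm, and of each list those past the thresholds and the 2 most abundant. The members and lists were chosen with earlier results of these data known.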

Additional observations from a re-analysis of the deposited data

How the results depend on the processing

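miR-21-5p kept a negative log2 difference in all of its 15 alternatives, with no adjusted p under 0.05 in the 14 that give one. Leaving out 1 library at a time it ranged from -0.37 to -0.08, and with the replicate block it was -0.21. miR-21-3p ranged from -0.66 to 0.14 when 1 library was left out, turning positive without MSCTXL-Exo library 10, and was negative in its other alternatives. The difference in log2 arm ratio ranged from -0.15 to 0.31 with 1 library left out. It was 0.03 with the replicate block (exact sign-flip test, p = 1, where 3 pairs cannot go under 0.25), and -0.10 as the difference of the fold changes of both arms in edgeR, which weights libraries by their counts.

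The count of miRNAs past both thresholds was 34 with no filter, 6 with at least 10 counts in every library, 24 with DESeq2, 9 with limma-voom, 29 with the replicate block and 6 to 38 with 1 library left out. The count at an adjusted p under 0.05 was 1 with the replicate block and 0 in the other alternatives. Of hairpins with at least 10 counts of both arms in every library, 3 of 50 had arm ratios that did not overlap. The block changed neither arm's call. The depth of miR-21-3p, 10 to 100 UMIs, limits its comparison and the arm ratio, whereas miR-21-5p had at least 14166 UMIs in each library.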
